A study of Mus musculus with 2 samples.

Results

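Interferon-signature-high CD8+ T cells were T cells of the mouse brain that carried many transcripts of antiviral genes switched on by interferon. A cell was counted when its unique molecular identifiers (UMIs, one per captured transcript) included at least 1 of *Cd8a* or *Cd8b1* and at least 1 of *Cd3d*, *Cd3e* or *Cd3g*, no *Cd4*, and at least 4 in all of the gate genes *Ifit1*, *Ifit3*, *Usp18* and *Rsad2*. Cells with at least 2 UMIs of B cell (*Cd79a*, *Cd79b*), NK receptor (*Klra1*, *Klra7*, *Klrb1c*) or cell cycle genes (*Mki67*, *Top2a*, *Birc5*) were left out, as were those with at least 1% of UMIs from *S100a8* and *S100a9* or more than 15% from mitochondrial genes. This left 64 cells of the 2478 cells of the series, 62 from twi and 2 from WT. The other CD8+ T cells of the same gate, with 0 to 3 UMIs of the gate genes, numbered 286 in twi and 92 in WT.

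CD45+ leukocytes had been sorted from hemi-brains of untreated C57Bl/6 mice (C57BL/6J in the methods) at p21, and 2 to 3 animals per genotype were pooled into 1 droplet library (10x Genomics 3′ v2). The twi mice were *galc*-/-, without the galactosylceramidase that is lost in Krabbe disease, and the WT littermates were *galc*+/+. Depth was 3749714 UMIs over 1278 WT barcodes (median 2216 per barcode) and 4807539 UMIs over 1220 twi barcodes (median 3149.5). The libraries shared 0 barcodes, and *Galc* had 4 UMIs in WT and 8 in twi, which checks nothing about the labels because a 3′ count does not read the mutation. With 1 library per genotype there was no replicate and no test was made. The intervals are exact 95% intervals that cover counting error only. Genotype cannot be told apart from the pool of animals, the mix of sexes in it (transcripts given below) or the library run.

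Interferons are secreted proteins that bind receptors on nearly every cell and act through the kinases JAK1 and TYK2 or JAK2 on STAT transcription factors, which with IRF proteins switch on a large set of antiviral genes. Type I interferons signal through the receptor of *Ifnar1* and *Ifnar2*, and interferon gamma, made mainly by T and NK cells, through that of *Ifngr1* and *Ifngr2*. The sets of genes that they induce overlap. In T cells, interferon signals are known to shape activation, survival and the making of effector cells.

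The gate genes and *Isg15* are classic interferon-induced genes. *Ifit1* and *Ifit3* encode proteins that bind foreign RNA, *Rsad2* encodes viperin, an antiviral enzyme, *Usp18* removes the ubiquitin-like protein ISG15 from its targets and dampens type I interferon signaling, and *Isg15* encodes that protein. The 250 bases before a transcript start of 4 of these genes are shown because these genes chose or mark the cells, and interferon-responsive promoters commonly hold repeats of the letters GAAA. They were read from RefSeq (GRCm38.p6) for Ifit1 (chr19:34640639-34640888, plus strand), Ifit3 (chr19:34583279-34583528, plus strand), Rsad2 (chr12:26456453-26456702, minus strand) and Isg15 (chr4:156200819-156201068, minus strand). The *Ifit3* start in the promoter table lies within the annotated span of the gene (chr19:34583119-34588982), so its stretch lies inside that span. *Usp18* lies at chr6:121245906-121270917. Each is written 5′ to 3′ toward the gene, and capitals mark matches of GAAA and GAAA with any 2 bases between them, or of TTTC and TTTC with any 2 bases between where the match is on the other strand:
Ifit1: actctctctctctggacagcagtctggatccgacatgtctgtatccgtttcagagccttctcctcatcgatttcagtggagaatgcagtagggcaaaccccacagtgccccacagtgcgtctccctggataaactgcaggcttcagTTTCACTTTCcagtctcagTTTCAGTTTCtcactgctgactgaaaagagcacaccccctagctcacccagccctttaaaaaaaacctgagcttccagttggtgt
Ifit3: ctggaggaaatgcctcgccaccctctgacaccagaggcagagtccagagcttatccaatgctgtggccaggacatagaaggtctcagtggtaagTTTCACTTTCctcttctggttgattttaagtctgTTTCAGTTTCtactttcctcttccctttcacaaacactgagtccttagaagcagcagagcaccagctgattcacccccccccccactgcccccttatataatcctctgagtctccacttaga
Rsad2: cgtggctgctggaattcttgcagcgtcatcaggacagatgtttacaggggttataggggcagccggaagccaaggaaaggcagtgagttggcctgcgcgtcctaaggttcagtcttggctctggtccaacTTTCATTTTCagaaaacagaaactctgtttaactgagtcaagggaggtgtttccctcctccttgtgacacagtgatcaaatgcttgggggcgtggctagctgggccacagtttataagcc
Isg15: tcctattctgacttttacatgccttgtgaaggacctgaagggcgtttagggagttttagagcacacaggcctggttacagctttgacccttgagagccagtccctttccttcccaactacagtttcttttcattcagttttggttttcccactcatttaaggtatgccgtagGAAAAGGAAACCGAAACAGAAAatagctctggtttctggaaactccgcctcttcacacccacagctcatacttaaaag

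*Ifit1* and *Ifit3* each held 2 matches, *Rsad2* held 1 and *Isg15* held 3 that overlap each other. Over all promoters of this length, 3.46% of 27025 genes held at least 1 match, against 35 of the 88 genes of the interferon list described further on that had a promoter in the table, or 39.8%. Other lists also lay above the share of all genes, with 4 of 19 cytotoxic genes and 3 of 20 genes of MHC class I and its loading, whereas none of the 11 naive and recirculation genes held a match. A match is a description of these letters and not a measured binding site. *Ifit1* lies within the annotated span of *Ifit1bl1* and *Ifit3* has the close copy *Ifit3b*, so their counts are uncertain between the copies.

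The population was a graded tail of the twi CD8+ T cells. In twi, 184 of 348 gated CD8+ T cells had 0 UMIs of the gate genes, 56 had 1, 29 had 2, 17 had 3, 22 had 4 or 5, 19 had 6 to 9 and 21 had 10 or more. In WT, 82 of 94 cells had 0, and 1 cell each had 3, 4 or 5, and 6 to 9. The 62 twi cells held between 4 and 27 gate UMIs, with a median of 7. All 4 gate genes were seen in 16 of them, 3 genes in 32 and 2 genes in 14, so none was chosen on a single gene. The limit did not fall in a gap: the 46 cells with 2 or 3 gate UMIs had 560 counts per 1000000 UMIs (CPM) of *Isg15* and the 22 cells with 4 or 5 had 786 CPM.

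**Figure D1:**
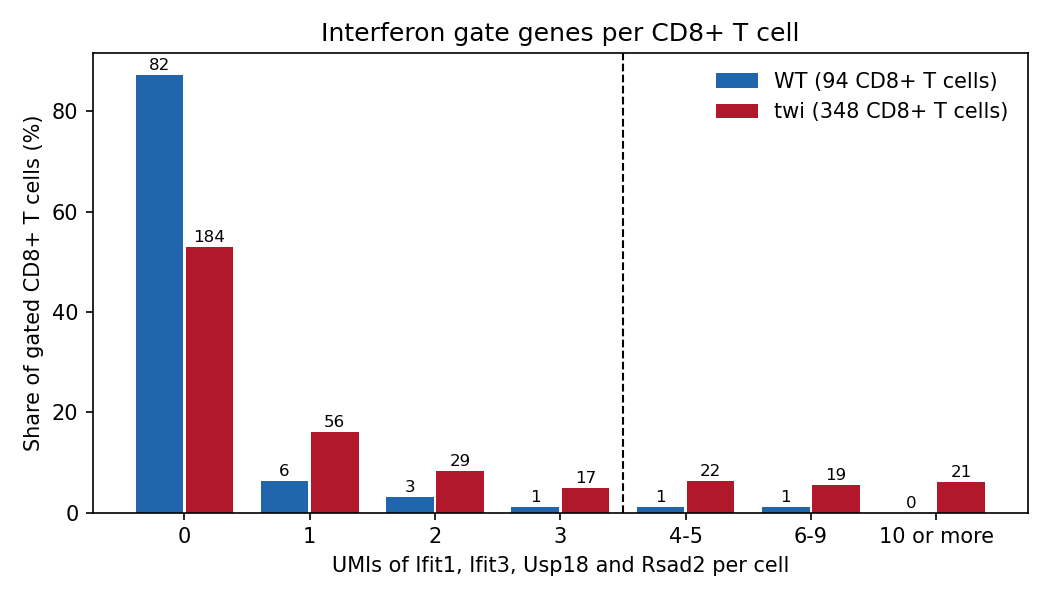
Share of gated CD8+ T cells (vertical axis, percent) by the summed UMIs of the 4 gate genes per cell (horizontal axis), with WT in blue and twi in red; the number above each bar is the number of cells, and the dashed line is the limit of 4 UMIs. The twi cells extend to the right of the limit with 22, 19 and 21 cells, whereas WT has 1, 1 and 0.

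The chosen cells made up 17.8% of gated CD8+ T cells in twi (62 of 348, 95% interval 13.9 to 22.2%) and 2.13% in WT (2 of 94, 0.259 to 7.48%), a ratio of 8.37 (2.22 to 70.7). They were 5.14% of all 1207 twi cells and 0.157% of all 1271 WT cells. Twi CD8+ T cells were deeper, with a median of 3834.5 UMIs against 3273.5 in WT. After each cell was thinned to 1000 UMIs, the expected share with at least 1 gate UMI was 26.9% in twi and 5.81% in WT, with 6 twi and 2 WT cells too shallow to be used. In B cells, used as a rough guide to free RNA in the droplets, the same thinned share was 3.96% in twi and 1.58% in WT, at median depths of 2202 and 2017 UMIs. Whether these UMIs were free RNA or the B cells' own was not tested, and 2 of 555 WT B cells had at least 4 gate UMIs.

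The 2 WT cells differed from most of the twi cells. The first had 1716 UMIs, 7 of them from the gate genes and 5 from *Isg15*, and it had as many effector as naive transcripts. The second had 6672 UMIs, 4 from the gate genes and 3 from *Isg15*, and its 19 naive transcripts outnumbered its 2 effector transcripts. A pair of cells with 8388 UMIs in all does not allow a profile, so the values that follow are for twi unless WT is named.

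Nearly all of the twi cells were effector-type. A cell was called effector-type when its UMIs of *Ccl5*, *Nkg7*, *Cxcr6*, *Gzmb* and *Gzmk* outnumbered those of 5 genes of naive cells, among them *Ccr7*, *Lef1*, *Dapl1* and *Satb1*, and naive-type when they were fewer; this is a range and not a cell type. By this measure, 60 of the 62 cells were effector-type and 2 naive-type, against 218 effector-type and 63 naive-type of the 286 other twi CD8+ T cells. Only 1 of the 62 cells and 14 of the 286 lay within 1 UMI of the limit. Among effector-type cells alone, the population made up 21.6% in twi (60 of 278, 16.9 to 26.9%) and 0 of 28 cells in WT, which allows a share of up to 10.7% by 3 counts and 12.3% by the 95% interval. These 28 WT cells carried 2720 CPM of microglia and macrophage markers against 140 CPM in the 218 other effector-type twi cells, and the part of these transcripts in the comparison was not tested. Of naive-type cells it made up 2 of 65 in twi and 1 of 60 in WT.

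Cells with *Xist* and cells with Y-linked transcripts were both found in twi. The population made up 18.2% of the 187 CD8+ T cells with *Xist* and no Y-linked transcript (12.9 to 24.5%), and 17.6% of the 51 cells with a Y-linked transcript and no *Xist* (8.40 to 30.9%). The shares in the cells of the 2 kinds lay within each other's intervals, so cells with transcripts of either kind contributed. Both WT cells carried a Y-linked transcript, among 41 such WT cells, and *Xist* was seen in 0 of the 94 WT CD8+ T cells. Over cells of all classes, 548 twi cells had *Xist* alone and 207 a Y-linked transcript alone. In WT, 487 cells had a Y-linked transcript and the remaining 784 had neither. Values of twi over WT thus set a library with *Xist* beside one without it. The ratio of shares within Y-transcript cells was 3.62 (0.749 to 34.4), an interval that includes 1.

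The label was checked against its markers, of which *Ifit3*, *Ifit1* and *Usp18* were part of the choice and are given as a description only. *Ifit3* had 714 CPM in the 62 twi cells, 59.3 CPM in the other twi CD8+ T cells and 6.29 CPM in the other WT CD8+ T cells. *Ifit1* had 542, 47.6 and 22.02 CPM in the same order, and *Usp18* had 320, 31.4 and 12.6 CPM. *Rsad2*, the least counted of the gate genes, had 122, 9.88 and 6.29 CPM. All of these levels are higher in the chosen cells because the cells were chosen on them.

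*Isg15* and *Cxcl10*, markers outside the gate, were also higher. *Isg15* had 1414 CPM in the 62 cells, 176 CPM in the other twi cells and 69.2 CPM in the other WT cells, a ratio of 8.03 within twi (6.79 to 9.54). It was seen in 88.7% of the 62 cells and 36.7% of the others, or 64.6% and 16.3% after thinning, against 4.03% of twi B cells, or 1.24% after thinning. *Cxcl10*, a chemokine that draws cells carrying CXCR3, had 216, 35.0 and 25.2 CPM, a ratio of 6.18 within twi (4.13 to 9.36), and it was seen in 38.7% of the 62 cells and 3.85% of the others. In 1 of the other twi cells there were 16 of their 39 *Cxcl10* UMIs, and without the top cell of each group the ratio was 8.39; all 8 of the WT UMIs were in 1 cell. After thinning, *Cxcl10* was seen in 17.3% of the 62 cells and 2.41% of the others, against 0.671% of twi B cells, or 0.409% after thinning. Both markers were thus higher in these cells than in the other CD8+ T cells of the same library.

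Genes are compared next by list, with the gate genes left out. In the comparison of the 62 cells with the other 286, 7855 genes had at least 10 UMIs; 4.86% of them were at least 2-fold higher and 9.09% at least 2-fold lower, with a median log2 ratio of -0.04 (pseudocount of 0.5 UMIs). Since the cells were chosen on interferon-induced genes, the interferon lists describe what came with the gate and support nothing. Of 95 interferon-induced genes with enough UMIs, 65 were at least 2-fold higher and 1, *Ifitm1*, was at least 2-fold lower, with a median log2 ratio of 1.42. *Ifitm1* had 0 UMIs in the 62 cells and 19 in the others, 11 of them in 1 cell. The summed level of the list was 25326 CPM in the 62 cells and 12007 CPM in the others. Per cell it ranged from 87.1 to 756 per 10000 UMIs with a median of 219 in the 62 cells, and from 25.8 to 545 with a median of 117 in the others, so the cells of the groups overlapped on the summed list. These sums weigh abundant genes most, led by *Ms4a4b*, whose log2 ratio was 0.68.

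The list of *Ifit*, ISG15-related and various other interferon-induced genes had a median log2 ratio of 1.62, and 25 of 38 were at least 2-fold higher. *Isg20*, an exonuclease that degrades viral RNA, had 350 CPM in the 62 cells, 86.2 CPM in the other twi cells and 12.6 CPM in the other WT cells. *Ifit3b* had 178, 30.5 and 0 CPM. *Herc6*, the main ligase that attaches ISG15 in mice, had 225, 47.6 and 31.5 CPM. *Bst2* (tetherin), which holds budding viruses at the cell surface, had 934, 330 and 129 CPM, and is counted in the next list. ISG15 itself and the ligase that attaches it were thus both higher in the same cells.

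The list of nucleic acid sensors, *Oas* genes and other interferon-induced genes showed a median log2 ratio of 1.30, with 23 of 30 at least 2-fold higher. The transcript of *Mx1*, an interferon-induced gene, had 101 CPM in the 62 cells, 7.18 CPM in the other twi cells and 0 in the other WT cells. Its ratio within twi was 14.0 (6.37 to 35.1), and that of *Oasl2*, an oligoadenylate synthetase-like gene, was 14.9 (4.89 to 60.3). *Zbp1*, a sensor of Z-form nucleic acid that can trigger cell death, had 501, 132 and 59.8 CPM. *Dhx58* (LGP2) had 104, 18.9 and 12.6 CPM, and *Ifih1* (MDA5), the RNA sensor it assists, had 71.1, 12.6 and 12.6 CPM. *Ddx60* had 110, 19.8 and 18.9 CPM. For the last 3 genes the 62 cells stood above both other groups. The WT levels rest on few UMIs, 4 for *Dhx58*, whose ratio of the other twi cells to the other WT cells was 1.5 (0.506 to 6.01).

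Interferon-inducible GTPases, which act on the membranes that enclose intracellular microbes, had the highest share past 2-fold of the 4 interferon lists: 14 of 15 were at least 2-fold higher, with a median log2 ratio of 1.68. The exception was *9930111J21Rik2*, with a log2 ratio of 0.71. *Igtp* had 335 CPM in the 62 cells, 87.1 CPM in the other twi cells and 40.9 CPM in the other WT cells, a ratio of 3.85 within twi (2.91 to 5.1). *Gbp2* had 184, 57.5 and 47.2 CPM, and *Ifi47* had 465, 192 and 164 CPM. These GTPases are known as strongly induced by interferon gamma.

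Of the transcription factors that carry the signal, 3 of 12 were at least 2-fold higher. *Irf7*, which amplifies type I interferon responses, had 391 CPM in the 62 cells, 110 CPM in the other twi cells and 53.5 CPM in the other WT cells, a ratio of 3.57 within twi (2.77 to 4.61).

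**Figure D2:**
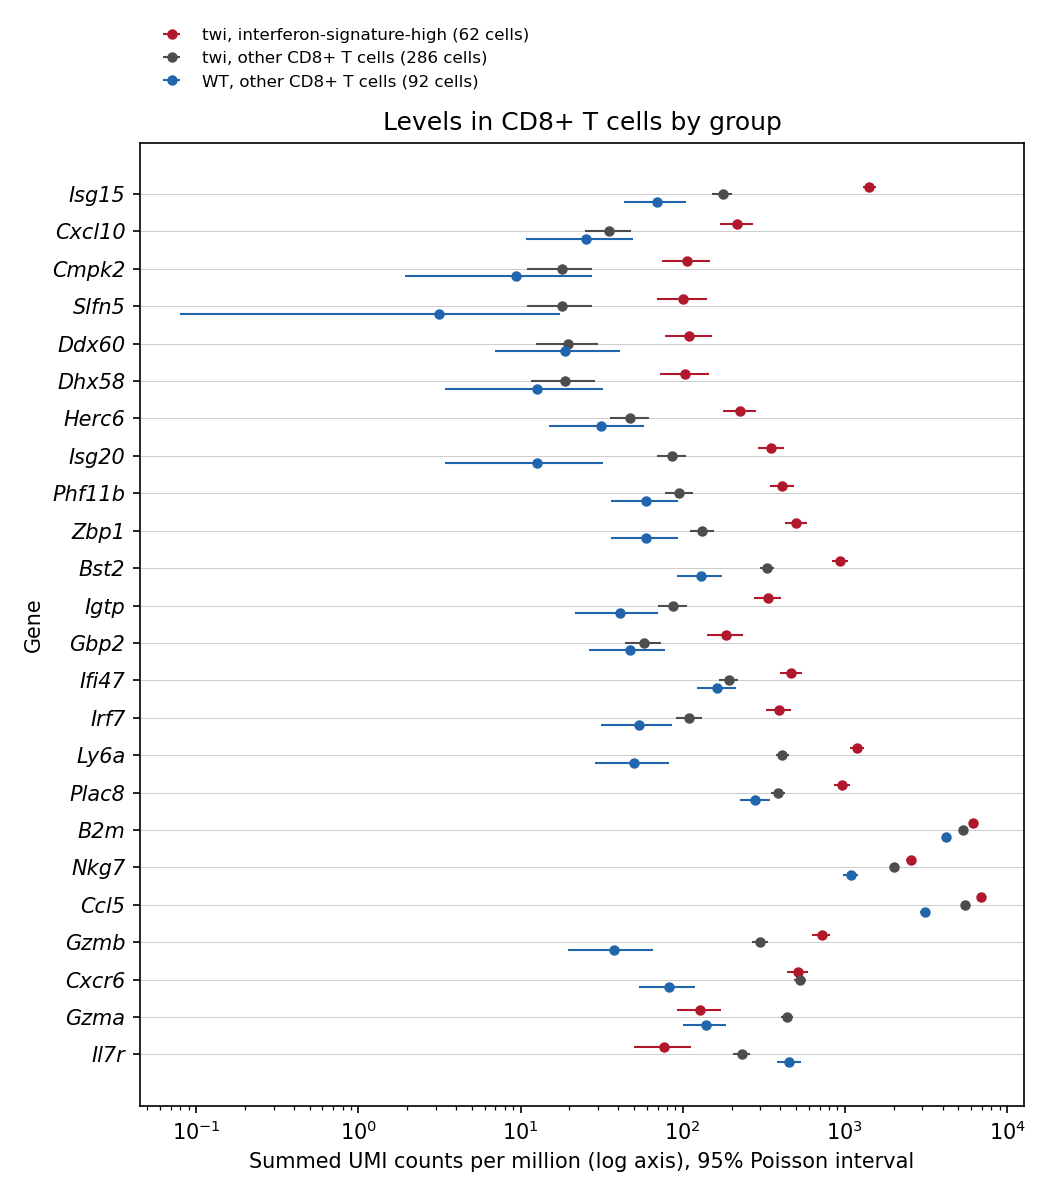
Summed UMI counts in CPM (horizontal log axis) of 24 genes in the 62 interferon-signature-high twi CD8+ T cells (red), the 286 other twi CD8+ T cells (grey) and the 92 other WT CD8+ T cells (blue); points are levels and bars exact 95% Poisson intervals. The red points lie to the right for the interferon-induced genes (*Isg15* at 1414 CPM against 176 and 69.2), close to the grey ones for *Cxcr6* and *B2m*, and to the left of the grey ones for *Gzma* and *Il7r*.

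Antigen presentation genes, which interferons also induce, differed less. Of 23 genes for MHC class I and its peptide loading, 0 were at least 2-fold higher, and the median log2 ratio was 0.32. *Psmb9*, an immunoproteasome subunit, had 388 CPM in the 62 cells, 209 CPM in the other twi cells and 173 CPM in the other WT cells. *Tap1*, which carries peptides into the endoplasmic reticulum, had 207, 133 and 69.2 CPM. *B2m*, the light chain of MHC class I, had 6145, 5314 and 4183 CPM, a ratio of 1.16 within twi (1.10 to 1.22). The surface protein gene *Ly6a* (Sca-1) went further, with 1186, 410 and 50.3 CPM, a ratio of 2.89 within twi (2.52 to 3.31), and *Plac8* had 963, 386 and 280 CPM.

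The receptors of the pathway were not higher in these cells. *Ifnar1* had 44.5 CPM in the 62 cells and 59.3 CPM in the other twi cells, and *Ifnar2* had 80.0 and 81.7 CPM, with intervals of the ratio that include 1. *Ifngr1* had 329 and 466 CPM, a ratio of 0.71 (0.570 to 0.868). Among inhibitors of the pathway, *Socs1*, which blocks JAK kinases, had 119 and 64.7 CPM, a ratio of 1.83 (1.21 to 2.74), and *Pias1*, which restrains STAT proteins, had 53.4 and 20.7 CPM, a ratio of 2.58 (1.31 to 5.0). The other inhibitors had log2 ratios of -0.01 (*Socs3*), 0.27 (*Cish*) and 0.31 (*Ptpn6*). Over the 12 receptor and feedback genes the median log2 ratio was 0.03, with 1 gene at least 2-fold higher and 0 at least 2-fold lower. Of 13 interferon genes looked at, only *Ifng* reached 10 UMIs, with 50.4 CPM in the 62 cells, 65.6 CPM in the other twi cells and 75.5 CPM in the other WT cells, and a ratio within twi of 0.77 (0.425 to 1.32).

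Because 60 of the 62 cells were effector-type, every list was computed again among effector-type twi cells only, 60 against 218. Here 7409 genes had at least 10 UMIs, 4.45% were at least 2-fold higher, 8.91% at least 2-fold lower, and the median log2 ratio was -0.05. The interferon list had a median of 1.30, with 60 of 93 genes at least 2-fold higher and 1 lower. *Isg15* had a ratio of 6.63 (5.59 to 7.89), *Mx1* of 11.1 (5.06 to 27.8) and *Igtp* of 3.61 (2.68 to 4.89). The ratios of these genes were thus smaller than over all cells, and each of these intervals lay above 2.

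Naive and cytotoxic genes depended on which CD8+ T cells were compared. The naive and recirculation genes had a median log2 ratio of -1.07 over all CD8+ T cells, with 9 of 16 at least 2-fold lower and 2 higher. Among effector-type cells the median was -0.08, with 3 of 15 at least 2-fold lower and 1 higher. *Dapl1*, which marks naive T cells, had a ratio of 0.26 (0.142 to 0.438) over all cells and 1.85 (0.806 to 4.11) among effector-type cells. *Ccr7*, which guides T cells to lymph nodes, went from 0.48 (0.306 to 0.716) to 1.57 (0.869 to 2.78). For both genes the interval among effector-type cells includes 1, so no direction is read there. *Il7r*, the receptor subunit for the survival factor IL-7, kept its direction, with 77.1 CPM in the 62 cells, 231 CPM in the other twi cells and 453 CPM in the other WT cells, a ratio of 0.33 (0.214 to 0.501) over all cells and 0.39 (0.233 to 0.615) among effector-type cells. Several of these genes, *Dapl1* and *Ccr7* among them, define the effector-type and naive-type limits, so leaving out naive-type cells moves their ratios by construction.

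Cytotoxic genes had a median log2 ratio of 0.20 over all CD8+ T cells and of -0.0021 among effector-type cells. *Gzmb*, a granzyme that starts cell death in targets, had 717 CPM in the 62 cells, 299.9 CPM in the other twi cells and 37.7 CPM in the other WT cells, a ratio of 2.39 (2.02 to 2.83), or 1.93 among effector-type cells (1.63 to 2.28). It was seen in 43.5% of the 62 cells and 28.7% of the others, or 27.6% and 16.4% after thinning, against 3.36% of twi B cells (1.54% thinned), and 50 of its 242 UMIs came from 1 cell. *Gzma*, another granzyme, went the other way, with 127, 440 and 138 CPM, a ratio of 0.29 (0.207 to 0.396) and 0.23 among effector-type cells (0.166 to 0.318). It was seen in 22.6% of the 62 cells and 18.9% of the others, or 8.49% and 8.52% after thinning, against 6.71% of twi B cells (3.13% thinned). Twi B cells had 129.6 CPM, so the level in the 62 cells was no higher than in B cells, and 1 of the others held 107 of their 490 UMIs. *Nkg7*, a granule protein, had 2546, 2012 and 1088 CPM, and *Ccl5*, a chemokine of effector T cells, had 6915, 5515 and 3098 CPM; among effector-type cells their ratios were 1.09 and 1.0. *Gzmb*, *Nkg7*, *Ccl5* and *Cxcr6* enter the effector-type limit. *Prf1* (perforin) had only 3 UMIs in the 62 cells, too few to compare.

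The residence and activation genes had a median log2 ratio of -0.03, with 4 of 25 at least 2-fold higher and 1, *Itgae*, at least 2-fold lower. *Cxcr6*, a chemokine receptor of tissue-resident T cells, had 513 CPM in the 62 cells, 530 CPM in the other twi cells and 81.8 CPM in the other WT cells, and a ratio among effector-type cells of 0.79 (0.658 to 0.932). The inhibitory receptor gene *Lag3* had 38.5 CPM and 11.7 CPM within twi, a ratio of 3.30 (1.41 to 7.73), and *Cd274*, which encodes PD-L1 and is induced by interferon, had 32.6 and 11.7 CPM, a ratio of 2.79 (1.13 to 6.76). *Pdcd1* (PD-1) had 17.8 and 23.3 CPM, with an interval of the ratio from 0.256 to 1.89. Cytokine and chemokine genes had a median log2 ratio of 0.10, with 1 of 13 at least 2-fold higher (*Cxcl10*) and 2 lower, and cell cycle genes, whose leading members the gate limits, one of 0.27, with 1 of 21 higher and 0 lower. *Lag3*, *Cd274* and *Pdcd1* rest on 6 to 13 UMIs in the 62 cells.

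Immediate early genes, which are induced within minutes by T cell receptor signals and also by tissue dissociation, had a log2 ratio below 0 in 15 of 16 cases, against 4211 of all 7855 genes, most by less than 2-fold, with a median log2 ratio of -0.27 and -0.30 among effector-type cells. The exception was *Ier3*, with a log2 ratio of 1.29. *Egr1*, an early target of the T cell receptor, had 4 UMIs in the 62 cells and 54 in the others, a ratio of 0.24 (0.0643 to 0.663). *Nfkbia*, an inhibitor of NF-κB, had 157 and 289 CPM, a ratio of 0.54 (0.398 to 0.728), and *Btg2* had 308 and 575 CPM, a ratio of 0.54 (0.432 to 0.661). The genes of T cell receptor signaling itself had a median log2 ratio of 0.02, with 0 of 14 past 2-fold either way. Transcription factors of T cell fate had a median of -0.24, and 0 of 15 were at least 2-fold higher and 3 at least 2-fold lower.

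**Figure D3:**
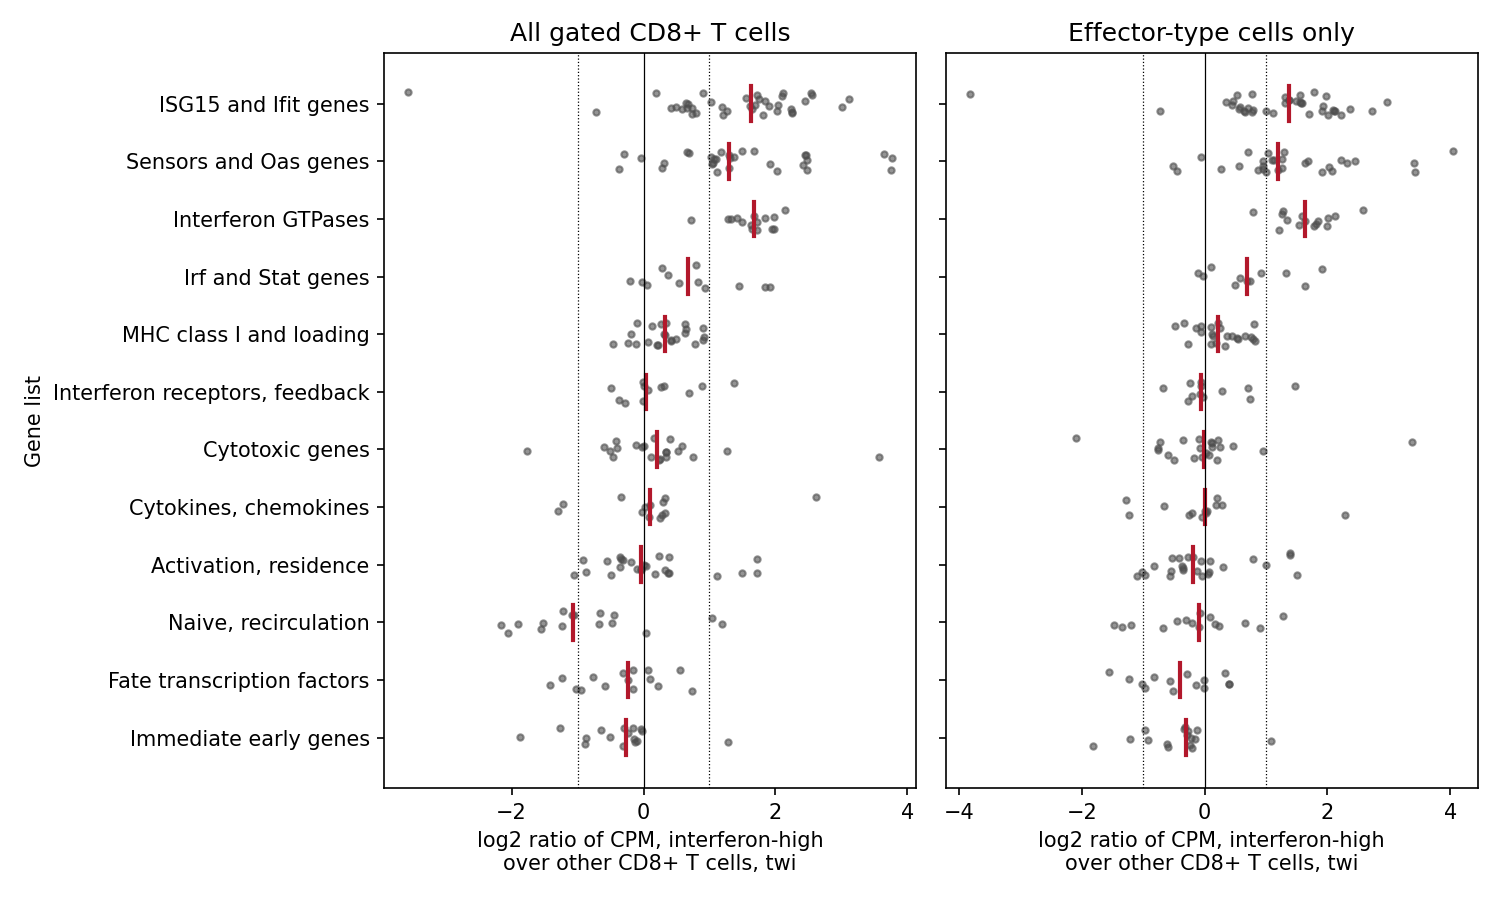
The log2 ratio of CPM in interferon-signature-high over other twi CD8+ T cells (horizontal axis) for each gene with at least 10 UMIs in 12 lists (vertical axis), over all gated cells (left) and among effector-type cells (right); points are genes, red bars medians, and dotted lines mark 2-fold. The interferon lists lie right of 0 in both panels, and the naive list moves from -1.07 to -0.08.

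Over all genes with at least 25 UMIs, 3.06% of 5458 were at least 2-fold higher and 5.61% at least 2-fold lower. The genes named here were ranked by ratio among the 713 genes outside the gate that were higher in the 62 cells, with at least 100 CPM and 25 UMIs there. Genes enter that ranking through the cells where they are high, and the cells were chosen on genes induced together, so it is a description and no share is drawn from it. After *Mx1* came *Gzmc*, a granzyme gene, with a ratio of 12.3. However, 38 of its 41 UMIs came from 1 cell, and the ratio was 1.12 without the top cell of each group. Next were *Isg15*, *Cxcl10*, *Cmpk2* (5.94), *Ifit3b* (5.83), *Slfn5* (5.61), *Ddx60* (5.55), *Dhx58* (5.50) and *Tor3a* (5.50).

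Under the same limits applied to the other cells, the genes with the smallest ratios were of several kinds. *Lyz2*, a lysozyme of myeloid cells, had 14 UMIs in the 62 cells and 792 in the others, of which 413 were in 1 cell. *Lef1*, a transcription factor of naive and memory T cells, had 86.0 CPM in the 62 cells and 251 CPM in the other twi cells, a ratio of 0.34 (0.226 to 0.504), or 0.62 among effector-type cells (0.393 to 0.936). *Tsc22d3*, a target of glucocorticoids, had 130 and 322 CPM, a ratio of 0.40 (0.289 to 0.554), or 0.62 among effector-type cells. *Cd163l1*, which in mice marks some γδ T cells, had 35.6 and 103 CPM, a ratio of 0.34 (0.173 to 0.625).

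Among effector-type twi cells, *Isg15*, *Zbp1*, *Irf7*, *Igtp* and *Ly6a* were higher at each step of gate UMIs, whereas *B2m*, at 5256, 6221, 5953 and 6559 CPM, was not. The steps were cut on the gate genes, so a rise of interferon-induced genes describes the choice of cells and supports nothing. *Gzmb* and *Nkg7* also enter the effector-type limit. For 0, 1 to 3, 4 to 9 and 10 or more gate UMIs, with 121, 97, 39 and 21 cells, *Isg15* had 96.7, 372, 1167 and 1886 CPM. *Ly6a* had 385, 685, 1016 and 1528 CPM, and *Gzmb* had 348, 422, 532 and 1059 CPM. In the last step 1 cell held 50 of the 133 *Gzmb* UMIs, and without it the level was 699 CPM. *Gzma* had 805, 245, 83.0 and 207 CPM, so that it was not highest where the gate genes were highest, and *Il7r* had 206, 111, 78.1 and 39.8 CPM. Without the top cell of each step, an alternative chosen after seeing the data, *Gzma* had 593, 93.9, 66.1 and 125 CPM, and *Il7r*, with 5 UMIs in the last step, had 25.2 CPM there. *Nkg7* stayed between 2370 and 2682 CPM in every step. The median depth of the cells in these steps was 3810, 3481, 4532 and 6085 UMIs, and the gate UMIs that set the steps were not scaled to depth.

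**Figure D4:**
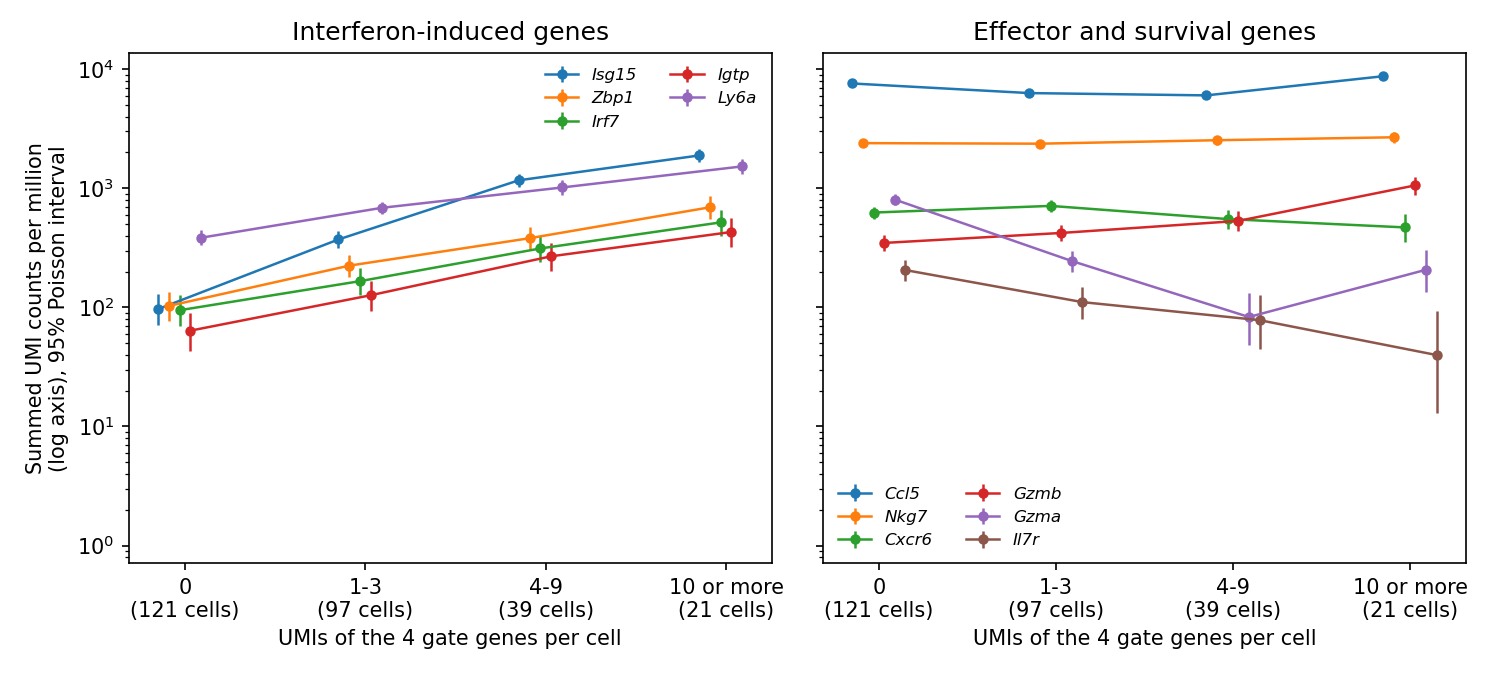
Levels of 5 interferon-induced genes (left) and 6 effector and survival genes (right) in effector-type twi CD8+ T cells, as summed UMI counts in CPM (vertical log axis), by the number of gate UMIs per cell (horizontal axis); points are levels and bars exact 95% Poisson intervals. *Isg15* goes from 96.7 to 1886 CPM, *Nkg7* stays between 2370 and 2682 CPM, and *Il7r* goes from 206 to 39.8 CPM. The steps were cut on the gate genes, so the left panel is a description only.

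Depth and RNA quality differed between the groups and are given beside these results. The 62 cells had a median of 5395 UMIs and 1670.5 genes, and the other twi CD8+ T cells 3643.5 UMIs and 1340.5 genes. Mitochondrial UMIs were 2.26% and 2.70%, and ribosomal protein UMIs 34.6% and 35.4%. Doublets were called in 0 of the 62 cells and in 1 of the 286 others. With the gate set at 10 gate UMIs per 10000 in place of 4 UMIs, 63 twi cells were chosen, 47 of them the same, and the interferon list had a median log2 ratio of 1.73.

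Of the defining transcripts of other cell types, some were at 0 in the 62 cells and others had UMIs. Of 11 microglia and macrophage markers, 6 had a UMI, with a summed level of 74.1 CPM against 144 CPM in the other twi cells and 944 CPM in the other WT cells; *C1qb*, *P2ry12*, *Tmem119*, *Trem2* and *Sparc* were at 0, whereas *C1qa*, *C1qc* and *Cx3cr1* had 1 UMI each and *Csf1r* had 4. Of 9 NK markers, 6 had a UMI, with 290 CPM against 620 and 264 CPM, led by *Gzma*, and *Ncr1* was at 0. Of 6 B cell markers in the files, 5 had a UMI, with 86.0, 79.9 and 179 CPM, led by *Cd74*. All 9 neutrophil markers had a UMI, with 415, 450 and 1491 CPM, led by *S100a8*. The gate limits *Klra7* and *Klrb1c* among the NK markers, *Cd79a* and *Cd79b* among the B cell markers, and *S100a8* and *S100a9*. Levels of the NK, B cell and neutrophil lists were thus partly set by the choice of cells in every group. Of 4 γδ T cell markers in the files, 3 had a UMI, with 41.5, 110 and 9.44 CPM, led by *Cd163l1*. Of 11 monocyte and dendritic cell markers, 7 had a UMI, with 5086, 3518 and 1331 CPM, led by *Ly6c2*, which effector T cells also express, and *Itgam*, *Flt3*, *Xcr1* and *Siglech* were at 0.

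Red blood cell transcripts, of which 5 of 6 markers had a UMI, had 714 CPM in the 62 cells, 841 CPM in the other twi cells and 1463 CPM in the other WT cells, led by *Hbb-bs*. Of 9 glia and endothelium markers, 2 had a UMI, with 74.1, 90.7 and 110 CPM, led by *Mbp*. Of 6 CD4 and regulatory T cell markers, 4 had a UMI, with 44.5, 35.9 and 18.9 CPM, led by *Izumo1r*, and *Cd40lg* was at 0; *Cd4* was 0 by the gate. The part of any of these markers in the results was not tested.

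The other CD8+ T cells of twi and WT differed on the interferon list as well, by less. Its median log2 ratio of twi over WT was 0.58 over 88 genes, with 22 at least 2-fold higher and 2 lower, beside 10.7% higher and 5.23% lower among 7884 genes and a median of 0.11. Among effector-type cells it was 0.58 over 82 genes, with 17 at least 2-fold higher and 3 lower, beside 14.7% of 7028 genes at least 2-fold higher, 11.6% lower and a median of -0.04, with the microglia and macrophage transcripts of the WT effector-type cells given above. Among cells with a Y-linked transcript and no *Xist*, the median for the other CD8+ T cells of all types was 0.33. The list was thus higher in twi also among cells under the limit of the gate, and the part of the microglia transcripts in this was not tested.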

How the data were processed

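For 1 library of each genotype, the authors deposited counts of UMIs for every gene and barcode, not normalized. Per the submitters' processing notes, Cell Ranger 2.1.1 and mm10 were used, and per the methods reads were aligned with STAR, filtered on mapping quality and kept for barcodes above an adaptive UMI threshold. Reads that fit several gene copies may be lost, so counts of close copies (*Ifit3* and *Ifit3b*, *Tgtp1* and *Tgtp2*, *Gbp* and MHC class I genes) are uncertain. Coordinates are from RefSeq GRCm38.p6, the patched mm10 assembly.

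The gate was applied with Python 3.11.15 to barcodes with at most 15% mitochondrial UMIs, 1271 WT and 1207 twi cells. UMIs were summed per group and library and expressed in CPM. Intervals were exact Poisson for levels, conditional binomial for ratios and Clopper-Pearson for shares (scipy 1.17.1). A list is given by its median log2 ratio over genes with at least 10 UMIs in the compared groups together, with a pseudocount of 0.5 UMIs. Gate genes were left out of lists and counts. Doublet calling by Scrublet (scanpy 1.11.5) marked 4 cells of WT and 6 of twi, under 1%, so doublets may remain, and none was removed. A share of 0 was given the limit that 3 counts allow. The steps were tested on simulated data.

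The genes named are the gate genes and markers, members of the gene lists, *Galc*, and the 10 largest and 10 smallest ratios among genes with at least 100 CPM and 25 UMIs in the group where they are higher, over all cells and among effector-type cells. The population, its rule and the lists were chosen with earlier results of these data known. T cell receptor and immunoglobulin constant-region genes and some listed symbols were not used here, and results for some single genes are not reported here. Alternatives were other limits on mitochondrial UMIs, gate UMIs and depth, other comparison cells and weights, pseudocounts and UMI minimums, cells with one sex's transcripts, and removal of doublets or of cells with *C1q* or *Lyz2* transcripts.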

Additional observations from a re-analysis of the deposited data

Results flagged for a closer look

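Cells outside the CD8+ T cell gate also carried the gate genes, which the comparisons above do not use. At least 4 gate UMIs were seen in 7.57% of such twi cells (65 of 859, 95% interval 5.89 to 9.54%) and in 0.765% of such WT cells (9 of 1177, 0.350 to 1.45%). In twi the share was 20.8% of cycling *Cd3*+ cells (10 of 48, 10.5 to 35.0%), 13.7% of *Cd3*+ cells with NK receptors (20 of 146, 8.57 to 20.4%), 8.33% of cells with NK receptors and no *Cd3* (4 of 48), 9.80% of cells with neutrophil transcripts (5 of 51), 2.94% of CD4+ T cells (2 of 68) and 6.82% of the cells in no named class (23 of 337, against 2 of 244 in WT). Of 149 twi B cells it was 0, where the limit that a count of 0 allows is 2.01%. In WT it was 1 of 42 *Cd3*+ cells with NK receptors, 0 of 16 cycling *Cd3*+ cells, 0 of 56 cells with NK receptors and no *Cd3*, 2 of 205 cells with neutrophil transcripts and 2 of 555 B cells. It was 2.33% of WT CD4+ T cells (1 of 43), and 6.25% of *C1q*+ cells in WT (1 of 16) and 8.33% in twi (1 of 12), from 1 cell each. Cycling *Cd3*+ cells were deeper, with a median of 6389.5 UMIs in twi against 3834.5 in gated CD8+ T cells, and thinned to 1000 UMIs their expected share with at least 1 gate UMI was 21.9%, against 26.9%. No test was possible with 1 library per genotype.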

How the results depend on the processing

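With 1 library per genotype, no result has a replicate, and genes with few UMIs are limited by counting error. No paired analysis was possible because each genotype had 1 library and no result came from a test. The twi share of 17.8% was 22.7% with at least 3 gate UMIs, 11.5% with at least 6 and 26.9% as the thinned share with at least 1; the WT share was 0 among effector-type cells, an alternative chosen after seeing the data. The ratio of shares lay between 3.62 and 15.3 over 10 alternatives. The median log2 ratio of the interferon list within twi, 1.42, was 1.73 with 10 gate UMIs per 10000, 1.70 among cells with 2000 to 8000 UMIs and 1.74 against cells with 0 gate UMIs, and lay between 1.18 and 1.74 over 15 alternatives. That of the cytotoxic list, 0.20, was 0.46 with at least 6 gate UMIs, turned to -0.37 among cells with a Y-linked transcript and no *Xist*, and to -0.0021 among effector-type cells, while the naive list, at -1.07 over all cells, was at -0.085 there. The interferon list of twi over WT in the other CD8+ T cells, 0.58, lay between 0.33 and 0.53 over 3 alternatives. Against 167 genes at least 2-fold higher and 306 lower, there were 46 and 26 with at least 100 UMIs per gene, and 507 lower with each cell weighted equally. A comparison among naive-type cells was not run, since 2 members were of this kind. The causes of these shifts were not tested, save that fewer genes reached 100 UMIs.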
